A study of Mus musculus with 12 samples.

Results

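The ears of mice homozygous for the Spade allele were compared between 6 weeks and 4 weeks of age, the interval in which the dermatitis of this strain advances. The comparison rests on 4 of the 12 arrays of the series: 4-week Spade replicates 1 and 2 and 6-week Spade replicates 3 and 4, chosen by genotype and age as the labels give them. Spade/Spade mice and their wild-type littermates were sampled as whole ear tissue, with 2 arrays for each genotype at 2, 4 and 6 weeks. Wild-type replicates 1 and 3 at 4 weeks and replicates 1 and 3 at 6 weeks gave the change with age in ears without the allele. The labels state neither the sex of the mice nor whether an array held 1 animal or a pool, and total RNA of the whole ear mixed epidermis, dermis, cartilage, muscle, fat and blood-borne cells.

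The Spade allele makes Jak1 overactive, a tyrosine kinase that sits on the receptors of many cytokines, among them interferons, interleukin 6 and the type 2 cytokines. Ligand binding lets JAK kinases phosphorylate STAT transcription factors, which enter the nucleus and switch on target genes, including those of their own inhibitors such as Socs3. The mice develop a stepwise, progressive dermatitis. In inflamed skin in general, keratinocytes switch to stress keratins and small proline-rich envelope proteins, while myeloid cells, mast cells and basophils enter the dermis.

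Levels below are the deposited log2 GCRMA values, on which a step of 1 is a doubling, the lowest value the arrays give is 2.14, a level within 0.01 of it is called at the floor and values there have no order. The replicates are given in the order 1, 2 at 4 weeks and 3, 4 at 6 weeks, and in wild type 1, 3 and 1, 3. A difference is 6 weeks minus 4 weeks, with the standard error of the limma fit (n = 2 arrays a group). No gene passed the threshold in any of these comparisons, so differences are given as values, and "at least" marks a fold change whose lower group was called absent by MAS5 on both arrays.

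The tissue matched its label on all 4 Spade arrays. The defining genes of epidermis (Krt5 and Krt14), dermis (Col1a1), cartilage (Col2a1 and Acan), muscle (Acta1 and Ckm) and fat (Adipoq) were called present on 4 of 4, and the lowest of these levels was 9.28, for Col2a1. The 4-week Spade arrays stood apart from each other. Replicate 1 gave Xist, the X-inactivation RNA, at 2.74, against 12.35 on replicate 2 and 12.83 and 12.93 at 6 weeks. It was also the only array of the 12 with the Y-linked genes Eif2s3y, Uty and Kdm5d off the floor, at 11.47, 8.27 and 6.53. Wild-type 6-week replicate 1 had Xist at 2.77 and these Y-linked genes at the floor, a pattern that went with neither sex. Array numbers in the labels fall into a lower range, which holds both 4-week Spade arrays, and a middle range, which holds both 6-week Spade arrays, so age and array range cannot be told apart within Spade. The wild-type arrays have 1 array of each range at each age, which allowed a fit with the range as a block. In that fit the range term comes from wild-type replicate 3 against replicate 1 alone, so range and single arrays cannot be told apart. The ratio of the 3′ to the 5′ probe set of Gapdh, a sign of RNA quality, was 0.945 and 0.961 at 4 weeks and 1.13 and 1.14 at 6 weeks in Spade ears, and 0.875 and 0.976 against 1.02 and 1.02 in wild type. The part of sex, array range and RNA quality in the results was not tested beyond the values given here.

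The largest differences between 4-week and 6-week Spade ears were those of Xist, which replicate 1 at 4 weeks sets, Akr1c18 and Krt6b as higher and Btc as lower. With limma and Benjamini-Hochberg adjustment, 0 of 11984 tested genes (0.0%) passed an adjusted p of 0.05. An unadjusted p under 0.05 was reached by 534 genes (4.46%), of which 314 (2.62%) were higher and 220 (1.84%) lower at 6 weeks. On MAS5 signals 281 of 783 such genes were higher. The smallest adjusted p, 0.173, belonged to Fcer1a. The median difference over all genes was 0.02. Both 6-week arrays lay above both 4-week arrays for 2513 genes (21.0%) and below them for 1793 (15.0%).

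The 4-week Spade replicates gave different pictures of the interval. The mean of the 6-week ears was at least 2-fold above replicate 1 for 197 genes (1.64%) and at least 2-fold above replicate 2 for 85 (0.709%). It was at least 2-fold below replicate 1 for 141 genes (1.18%) and below replicate 2 for 46 (0.384%). Replicate 1 was thus farther from the 6-week ears in both directions. Of the 197 genes higher than in replicate 1, 150 had replicate 2 within 2-fold of the 6-week mean, 43 had it 2-fold or more below that mean and 4 had it 2-fold or more above. Of the 141 genes lower than in replicate 1, replicate 2 was within 2-fold of the 6-week mean for 118. Pearson's r over genes, which share their arrays and are not independent, was 0.985 between the 4-week replicates and 0.991 between the 6-week replicates. Replicate 1 correlated with the 6-week arrays at 0.982 and 0.978, and replicate 2 at 0.990 and 0.991.

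The call itself turned on these arrays. Without 4-week replicate 2, 10 genes passed the adjusted threshold, namely Krt6b, Krt16, Fetub, Fcer1a, Wfdc18, Lce3a, Klk6 and Scgb2b27 as higher and Btc and Glt8d2 as lower at 6 weeks. Without 6-week replicate 4, Il6 differed by 3.73. Its 4-week Spade values and its wild-type values at both ages were at or near the floor, where there is almost no spread. It may also have passed the filter only through the 6-week Spade ears, so that fit is no independent support. Scgb2b27, Glt8d2 and Fetub are named because of the fit without 4-week replicate 2, after their values were seen.

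**Figure D1:**
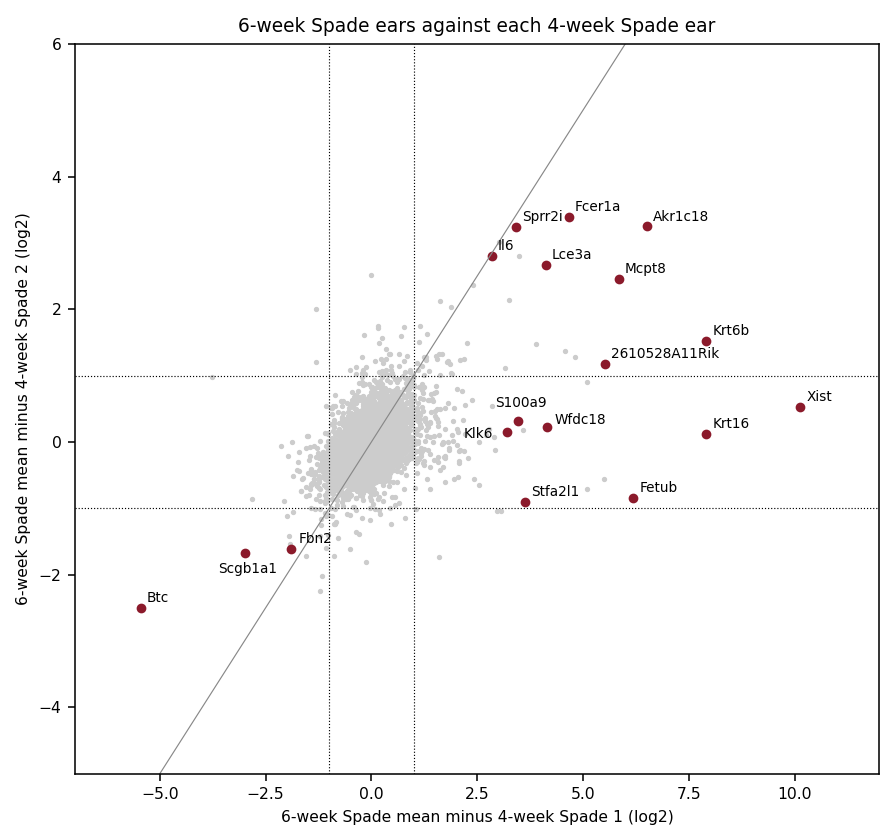
Each point is 1 of the 11984 tested genes, placed by the 6-week Spade mean minus 4-week Spade replicate 1 (horizontal, log2) and minus 4-week Spade replicate 2 (vertical, log2); dotted lines mark 2-fold and the solid line equal differences. Fcer1a, Il6, Lce3a, Sprr2i and Mcpt8 lie 2-fold or more above both 4-week ears, Krt16, Fetub, Klk6 and Wfdc18 lie far to the right but within 2-fold on the vertical axis, and Xist stands at the far right because replicate 1 has it near the floor.

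The 6-week ears were at least 2-fold above both 4-week Spade ears for 43 genes (0.359%) and at least 2-fold below both for 21 (0.175%). Of the 43, both 6-week arrays were called present by MAS5 for 40 and both 4-week arrays absent for 10. The same difference in wild-type ears was positive for 26 of the 43 and 2-fold or more for 8. Over all genes the wild-type median was itself positive, at 0.05, and the shares of all genes were not counted for these. With the array range as a block the difference stayed positive for 43 of 43. Genes at the floor or flat in wild type could hardly change in that fit. On MAS5 signals the count was 19 in place of 43, and with the mean of each gene's probe sets the lower count was 10 in place of 21. The 10 genes with the highest difference among those at an unadjusted p under 0.05 without overlap were Akr1c18, Krt6b, Mcpt8, Fcer1a, Lce3a, 2610528A11Rik, Sprr2i, Sprr2h, Sprr2d and Mucl1. Among the arrays at 4 and 6 weeks, Fcer1a, Lce3a, Sprr2i, Mucl1 and Il6 reached the filter level of 4 only in 6-week Spade ears. They may thus have been tested because they are high in that group, and their separation is not independent of the filter. Mucl1, of the mucin-like family, stood at 2.15 and 2.15 at 4 weeks and 5.25 and 5.09 at 6 weeks.

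Among the epidermal genes, Sprr2h and Sprr2i of the small proline-rich family and Lce3a of the late cornified envelope family had both 4-week ears more than 2-fold below both 6-week ears. The proteins of these families are cross-linked into the protein shell of cornified keratinocytes and are made in larger amounts when the barrier is damaged. The Sprr2 genes lie side by side on chromosome 3 and resemble each other closely, so a probe set may read more than 1 of them. Because Sprr2d, Sprr2h and Sprr2i were higher at 6 weeks together, and because Il6 was clearly above the floor in the 6-week Spade ears and not on the 4-week Spade or the 4- and 6-week wild-type arrays, the 250 bases before their start sites are shown, from RefSeq on GRCm38.p6. All 4 lie on the plus strand: Sprr2d at chr3:92338890-92339139, Sprr2h at chr3:92385435-92385684, Sprr2i at chr3:92407741-92407990 and Il6 at chr5:30012864-30013113. Capitals mark matches to the AP-1 motif TGANTCA and the NF-kappaB motif GGGNNTTTCC, searched on both strands together with the STAT motif TTCNNNGAA.
Sprr2d: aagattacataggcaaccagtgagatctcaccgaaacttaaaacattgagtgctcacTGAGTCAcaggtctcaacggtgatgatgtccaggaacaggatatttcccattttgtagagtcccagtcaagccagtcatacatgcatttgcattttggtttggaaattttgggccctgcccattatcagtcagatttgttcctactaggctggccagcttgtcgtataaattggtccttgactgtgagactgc
Sprr2h: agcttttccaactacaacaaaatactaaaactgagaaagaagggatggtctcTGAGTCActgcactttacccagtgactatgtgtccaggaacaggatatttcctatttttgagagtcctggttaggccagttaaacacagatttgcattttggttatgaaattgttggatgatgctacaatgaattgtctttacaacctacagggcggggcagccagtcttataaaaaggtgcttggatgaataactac
Sprr2i: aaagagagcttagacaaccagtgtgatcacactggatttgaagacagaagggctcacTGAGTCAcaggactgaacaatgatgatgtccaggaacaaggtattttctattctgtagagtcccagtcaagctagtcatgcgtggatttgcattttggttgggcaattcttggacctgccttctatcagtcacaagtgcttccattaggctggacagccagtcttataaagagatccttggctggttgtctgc
Il6: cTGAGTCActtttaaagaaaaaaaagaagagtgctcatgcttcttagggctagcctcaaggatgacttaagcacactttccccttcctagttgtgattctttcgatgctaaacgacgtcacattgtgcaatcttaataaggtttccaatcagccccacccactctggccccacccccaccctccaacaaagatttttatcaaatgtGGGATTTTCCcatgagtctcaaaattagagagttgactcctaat
Each of the Sprr2 windows held 1 AP-1 match, written TGAGTCA, whose first base was 193 bases before the start in Sprr2d and Sprr2i and 198 before it in Sprr2h. The Il6 window held an AP-1 match 249 bases and an NF-kappaB match 44 bases before the start, and no window of these 4 held a STAT match. Of all 27025 promoters in the table, 6.87% held TGANTCA, 7.18% TTCNNNGAA and 1.4% GGGNNTTTCC, and of the 10 Sprr2 promoters 7 held TGANTCA. Position by position, without gaps, the Sprr2d and Sprr2i windows were 69.6% identical, against 42.8% for Sprr2d and Sprr2h. No match to these motifs was found in the windows of Fcer1a, Mcpt8, Lce3a, Epgn or Btc. A match is a description of the letters and says nothing about binding in these ears.

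Sprr2i stood at 2.16 and 2.34 at 4 weeks and 5.20 and 5.96 at 6 weeks, a difference of 3.33 ± 0.59 (adjusted p = 0.429 in limma) or at least 10.1-fold. Sprr2h stood at 3.23 and 3.92 at 4 weeks and 6.63 and 6.80 at 6 weeks, a difference of 3.14 ± 0.57 (adjusted p = 0.429 in limma) or at least 8.83-fold. In both, either 4-week replicate lay far below the 6-week ears. Lce3a, a late cornified envelope gene known from wounded and psoriatic skin, stood at 2.43 and 3.88 at 4 weeks and 6.31 and 6.80 at 6 weeks, and Sprr2d at 3.53 and 7.05 at 4 weeks and 8.22 and 8.45 at 6 weeks. Their differences were 3.40 ± 0.50 and 3.05 ± 1.13. Sprr2d was thus already up on 4-week replicate 2, while Lce3a on that array was nearer to replicate 1 than to the 6-week ears. In wild type the same genes differed by 0.00, 0.24, -0.15 and 0.25, in the order Sprr2i, Sprr2h, Lce3a, Sprr2d.

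**Figure D2:**
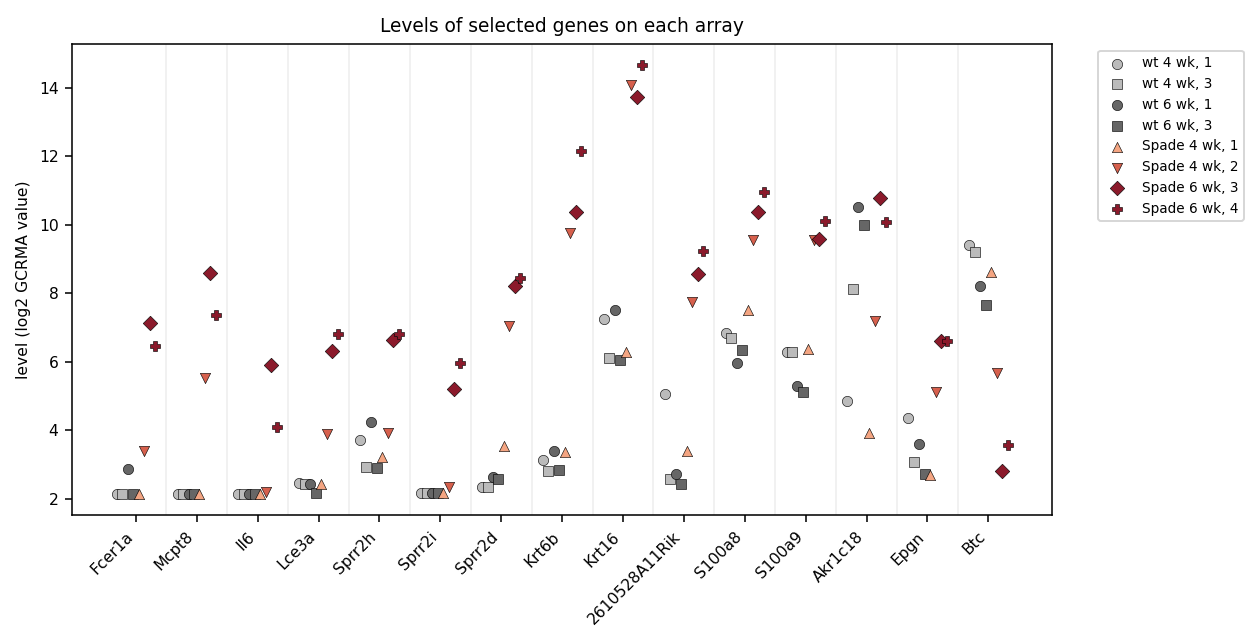
Level of 15 genes (log2 GCRMA value) on each of the 8 arrays at 4 and 6 weeks, with grey symbols for wild type, orange and red for the 4-week Spade replicates and dark red for the 6-week Spade replicates. Fcer1a, Il6, Lce3a, Sprr2h and Sprr2i have both 4-week Spade points below 4 and both 6-week points above 4, Krt16 and S100a9 have 4-week Spade replicate 2 at the 6-week level, and Btc runs the other way.

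The keratins of activated epidermis behaved differently. Krt16, a stress keratin of hyperproliferative epidermis, stood at 6.28 and 14.08 at 4 weeks and 13.73 and 14.66 at 6 weeks in Spade ears, and its partner keratin Krt6b at 3.35 and 9.75 at 4 weeks and 10.37 and 12.17 at 6 weeks. Krt16 on 4-week replicate 2 lay between the 6-week values, and replicate 1 was as low as wild type, where Krt16 stood at 7.25 and 6.12 at 4 weeks and 7.52 and 6.06 at 6 weeks. The differences were 4.02 ± 1.93 for Krt16 and 4.72 ± 1.62 for Krt6b, and against replicate 2 by itself they were 0.12 and 1.52. Krt6a and Krt17, which skin with hair follicles makes at rest, differed by 0.53 ± 0.37 and 0.25 ± 0.38 from high levels. Klk6, an epidermal serine protease, stood at 8.43 and 11.47 at 4 weeks and 11.36 and 11.89 at 6 weeks, and Fetub, a protease inhibitor of the fetuin family, at 3.87 and 10.90 at 4 weeks and 9.52 and 10.59 at 6 weeks. Wfdc18, a small whey acidic protein family member, stood at 4.36 and 8.29 at 4 weeks and 8.04 and 8.98 at 6 weeks. In Klk6, Fetub and Wfdc18, as in Krt16, 4-week replicate 2 was inside or above the range of the 6-week ears.

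Of the 23 tested genes of the 27 measured on the list of barrier activation keratins and alarmins, 0 passed the threshold. At an unadjusted p under 0.05, 9 were higher and 0 lower, against 2.62% and 1.84% of all genes. The ages did not overlap for 11 higher and 1 lower, against 21.0% and 15.0% of all tested genes. The median difference of the list was 0.84, against 0.02 over all genes and -0.23 for the list in wild type. Against 4-week replicate 1 alone the median was 1.68, and against replicate 2 alone 0.32. Sprr1b, another cornified envelope precursor, stood at 5.94 and 9.15 at 4 weeks and 10.47 and 10.57 at 6 weeks, with 1.47 as its wild-type difference. Slpi, a secreted inhibitor of neutrophil elastase, differed by 1.47 ± 0.44 without overlap. 2610528A11Rik, which RefSeq lists with the synonym Gpr15l, stood at 3.38 and 7.73 at 4 weeks and 8.57 and 9.24 at 6 weeks. The mean level of the whole list by array, 7.16 and 8.78 at 4 weeks and 9.19 and 9.54 at 6 weeks, placed replicate 2 closer to the 6-week ears than to replicate 1.

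The lists of structural barrier genes had medians near 0. Of 26 tested cornified envelope genes, 3 were higher (Lce3a, Lce3c and Lce3f) and 1 lower (Lce1m) at an unadjusted p under 0.05, where 2.62% and 1.84% of all genes were. The list's median difference was -0.09, but 0.52 with the array range as a block, and 5 were higher and 1 lower without overlap, against 21.0% and 15.0% of all genes. Lce1m, an envelope gene of undamaged epidermis, stood at 12.44 and 11.63 at 4 weeks and 10.25 and 10.91 at 6 weeks. The median was -0.06 for 21 genes of barrier lipid synthesis and 0.03 for 23 of keratinocyte junctions. Ocln, the tight junction protein occludin, was the junction gene at an unadjusted p under 0.05, with a difference of -0.64 ± 0.15 from 8.63 and 8.80 at 4 weeks and 8.06 and 8.10 at 6 weeks. Of 32 cell cycle genes 13 were higher and 2 lower without overlap, against 21.0% and 15.0% of all genes, and the median was 0.13. An unadjusted p under 0.05 was reached by 1 (Ttk, a spindle checkpoint kinase, at -0.64 ± 0.27), against 4.46% of all genes.

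Fcer1a and Mcpt8, genes of basophils and mast cells, separated the ages within Spade ears and were at or near the floor in wild type. Fcer1a encodes the alpha chain of the high-affinity IgE receptor, the defining surface receptor of mast cells and basophils, and had the smallest p of all genes. It stood at 2.14 and 3.41 at 4 weeks and 7.14 and 6.46 at 6 weeks, a difference of 4.03 ± 0.47 (adjusted p = 0.173 in limma), and 1 of the 2 arrays at 4 weeks was called absent by MAS5. In wild type it stood at 2.14 and 2.14 at 4 weeks and 2.86 and 2.14 at 6 weeks. Mcpt8, a protease of mouse basophils, stood at 2.14 and 5.53 at 4 weeks and 8.60 and 7.37 at 6 weeks, a difference of 4.15 ± 1.18, and was at the floor on all 4 of these wild-type arrays. Both genes thus had replicate 1 at the floor, replicate 2 above it and the 6-week ears well above replicate 2.

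Other genes of these lineages differed less or not in this way. Gata2, a transcription factor of the mast cell and basophil lineages, stood at 7.42 and 7.38 at 4 weeks and 8.55 and 8.24 at 6 weeks, a difference of 0.99 ± 0.15 (adjusted p = 0.429 in limma) with 4-week replicates that nearly coincided. Hdc, which makes histamine, stood at 7.54 and 8.76 at 4 weeks and 9.39 and 9.18 at 6 weeks. Ms4a2, the beta chain of the IgE receptor, differed by 0.60 ± 0.31, and Kit, the stem cell factor receptor of mast cells, by 0.33 ± 0.23. The proteases of mature connective tissue mast cells were high at both ages. Cpa3 differed by -0.04 ± 0.40, Cma1 by 0.14 ± 0.36, Mcpt4 by 0.06 ± 0.38 and Tpsb2 by 0.07 ± 0.29. Of the 11 tested of 16 measured markers, 4 were higher at an unadjusted p under 0.05 and 0 lower, against 2.62% and 1.84% of all genes, and 4 were higher without overlap, against 21.0%. In whole ear RNA, more cells of a type and more RNA per cell cannot be told apart.

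Il6, the cytokine that signals through Jak1 by way of the shared receptor subunit Il6st, stood at 2.14 and 2.19 at 4 weeks and 5.89 and 4.09 at 6 weeks. Its difference was 2.83 ± 0.48 (adjusted p = 0.429 in limma), 1 of the 2 arrays at 4 weeks was called absent by MAS5, and all 4 wild-type arrays at 4 and 6 weeks were at the floor. The 6-week replicates themselves differed, with replicate 4 the lower. Chemokines that draw monocytes also had both 6-week Spade values above both 4-week values. Ccl12 stood at 4.81 and 5.39 at 4 weeks and 6.73 and 6.51 at 6 weeks, Ccl7 at 3.91 and 3.92 at 4 weeks and 5.13 and 4.64 at 6 weeks and Ccl8 at 11.49 and 11.87 at 4 weeks and 12.60 and 12.42 at 6 weeks, so that for each the ages did not overlap. In wild type the differences of Ccl12, Ccl7 and Ccl8 were -1.66, -0.57 and -0.76, opposite in sign to Spade. The difference between genotypes was 3.18 ± 0.69 for Ccl12 and 1.58 ± 0.26 for Ccl8, with an adjusted p of 1 in limma for each. The sizes for Ccl12 and Ccl7 depended on the processing, since Ccl12 differed in Spade by 1.51 as given but by 0.030 on MAS5 signals and 0.72 with the array range as a block, and Ccl7 by 0.97 and, with that block, 0.33. Ccl22, a chemokine for type 2 T cells, stood at 3.80 and 4.39 at 4 weeks and 5.72 and 5.48 at 6 weeks. Of 17 tested innate cytokine and chemokine genes, 5 were higher at an unadjusted p under 0.05 (Il6, Ccl12, Ccl7, Ccl9 and Ccl6). None was lower, against 2.62% and 1.84% of all genes. Without overlap 9 were higher and 1 lower, against 21.0% and 15.0% of all genes. The list did not differ as a whole in 1 direction, since 10 of the 17 differed upward, where 6424 of all 11984 did. Its median difference was 0.19, and 0.36 and 0.04 against 4-week replicates 1 and 2 singly. The keratinocyte alarmins of type 2 inflammation were near 0, with 0.01 ± 0.46 for Il33 and 0.22 ± 0.21 for Tslp. Il4, Il5, Il13 and Il31 were below the filter on low values.

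Myeloid cell markers gave a broad but small difference. Of 27 tested macrophage and monocyte markers, 18 were higher and 0 lower without overlap, where 21.0% and 15.0% of all genes were. At an unadjusted p under 0.05, 5 were higher, against 2.62% of all genes. The median difference was 0.31 in Spade and -0.23 in wild type. Against replicates 1 and 2 singly the medians were 0.39 and 0.26, so replicate 2 was not at the 6-week level here. Cd209d, a lectin of the DC-SIGN family, stood at 8.26 and 8.20 at 4 weeks and 9.14 and 9.04 at 6 weeks (adjusted p = 0.429 in limma) and had 4-week replicates that nearly coincided. C1qc, a complement component made by tissue macrophages, stood at 9.69 and 9.97 at 4 weeks and 10.43 and 10.24 at 6 weeks in Spade and 9.45 and 9.31 at 4 weeks and 9.06 and 8.77 at 6 weeks in wild type. Ms4a4c, a membrane protein of monocytes, stood at 3.40 and 4.15 at 4 weeks and 5.87 and 5.42 at 6 weeks in Spade. In wild type it was also higher without overlap, at 3.58 and 3.40 at 4 weeks and 4.92 and 4.05 at 6 weeks. The difference between genotypes was 0.88 ± 1.17. Its Spade difference of 1.87 was 1.11 with the mean of its probe sets and 0.62 on MAS5 signals.

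Neutrophil genes followed the keratins instead. S100a9, a subunit of the calprotectin complex of neutrophils and stressed keratinocytes, stood at 6.39 and 9.55 at 4 weeks and 9.60 and 10.12 at 6 weeks, and its partner S100a8 at 7.52 and 9.56 at 4 weeks and 10.37 and 10.97 at 6 weeks. Stfa2l1, a stefin of the neutrophil lineage, stood at 5.29 and 9.82 at 4 weeks and 8.59 and 9.24 at 6 weeks, and was higher on 4-week replicate 2 than on either 6-week array. For the 6 tested markers the median was 2.97 against replicate 1 and 0.09 against replicate 2. The other 13 of the 19 measured neutrophil markers, among them Elane, Mpo, Ltf, Ngp and Camp, were below the filter on low values. Of 13 tested T cell and innate lymphoid markers, 0 reached an unadjusted p under 0.05, which with so few genes is near the 4.46% of all genes. Of the 13, 12 differed upward, where 6424 of all 11984 genes did. Without overlap 5 were higher and 0 lower, against 21.0% and 15.0% of all genes. Against replicates 1 and 2 singly the medians were 0.60 and 0.08. Cd4, Cd8a, Foxp3, Gzma and Gzmb were below the filter. The median of the tested markers was 0.23 in Spade and 0.22 in wild type. B cell genes rested on Ighm, the heavy chain of IgM, at -0.06 ± 0.36.

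**Figure D3:**
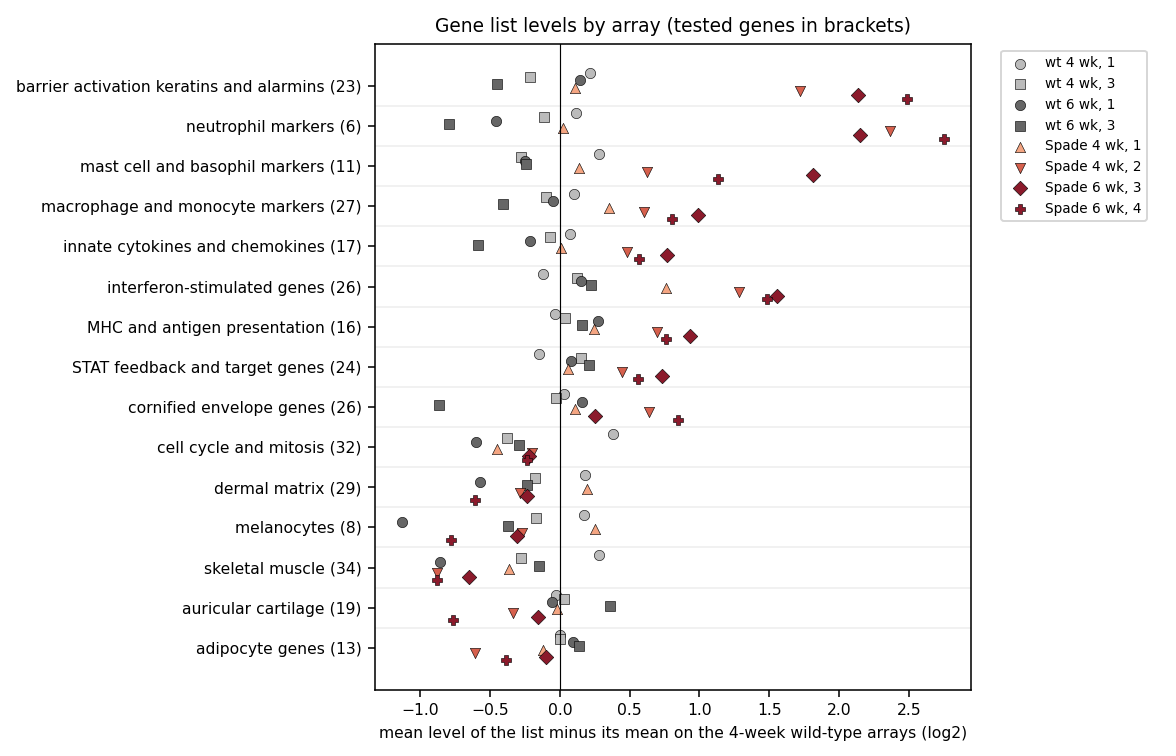
Mean level of the tested genes of 15 lists on each array, as the log2 difference from the list's mean on the 4-week wild-type arrays; numbers in brackets are tested genes, and symbols are as in the plot of single genes. For barrier activation and neutrophil genes 4-week Spade replicate 1 lies with wild type and replicate 2 with the 6-week Spade ears, for mast cell and basophil and macrophage markers the 6-week ears lie beyond both, and dermal matrix, melanocyte and muscle genes are spread over wild-type and Spade arrays alike.

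The lists of genes that JAK-STAT signals induce had medians below the 0.84 of the barrier activation list. Of 26 interferon-stimulated genes, 14 were higher and 2 lower without overlap, against 21.0% and 15.0% of all genes. At an unadjusted p under 0.05, 1 was higher (Ifi27l2a), against 2.62% of all genes, and the median difference was 0.51. Against replicates 1 and 2 singly the medians were 0.73 and 0.16. On MAS5 signals the median was 0.23, and with the array range as a block 0.26. Wild type gave 11 higher and 2 lower without overlap, where 25.2% and 12.4% of all genes were, and a median of 0.22. Ifit1, which binds foreign RNA, stood at 4.59 and 6.43 at 4 weeks and 6.67 and 6.57 at 6 weeks, and Oasl2 at 4.47 and 7.02 at 4 weeks and 6.94 and 7.10 at 6 weeks. Both had replicate 2 at the 6-week level and replicate 1 above every wild-type array at these ages, where the highest values were 2.77 and 3.53. Of 16 genes of MHC and antigen presentation, 16 differed upward, where 6424 of all 11984 did. Without overlap 9 were higher, against 21.0% of all genes, and the median was 0.32. The highest were the immunoproteasome subunits Psmb9, at 7.60 and 8.51 at 4 weeks and 8.89 and 8.83 at 6 weeks, and Psmb8, at 8.83 and 9.41 at 4 weeks and 9.87 and 9.72 at 6 weeks. Wild type had a median of 0.20 for this list and 6 genes higher without overlap.

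The STAT feedback genes gave small differences. Of 24 tested, 3 were higher at an unadjusted p under 0.05 (Fosl1, Osmr and Lrg1) and 0 lower, against 2.62% and 1.84% of all genes. Without overlap 8 were higher, against 21.0%, and the median was 0.28, or 0.10 with the array range as a block. Socs3, the feedback inhibitor of the interleukin 6 receptor, stood at 9.47 and 11.42 at 4 weeks and 11.03 and 11.35 at 6 weeks, so that replicate 2 was already above both 6-week ears. Osmr, the receptor of oncostatin M, stood at 9.38 and 9.92 at 4 weeks and 10.54 and 10.28 at 6 weeks, and Fosl1, an AP-1 subunit, at 4.52 and 4.83 at 4 weeks and 6.62 and 5.53 at 6 weeks. Jak1 itself stood at 12.06 and 11.95 at 4 weeks and 12.27 and 12.08 at 6 weeks, a difference of 0.17 ± 0.16, and Stat3 differed by 0.22 ± 0.28. Among 26 receptors and kinases of the pathway, Osmr and the receptor subunit Csf2rb, at 0.84 ± 0.35, were those at an unadjusted p under 0.05. Over all genes 4.46% reached that p.

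Ligands of the EGF receptor, which drive keratinocyte growth, differed in opposite directions. Btc, betacellulin, was the gene with the largest negative difference of all 11984 and stood at 8.63 and 5.68 at 4 weeks and 2.80 and 3.56 at 6 weeks in Spade ears. Its difference was -3.98 ± 0.76, or 15.8-fold lower (adjusted p = 0.566 in limma). Wild-type ears had Btc at 9.41 and 9.20 at 4 weeks and 8.22 and 7.67 at 6 weeks, a difference of -1.36. Replicate 1 at 4 weeks was below both 4-week and above both 6-week wild-type values, replicate 2 was below all 4 and both 6-week Spade ears were lower still. Epgn, epigen, ran the other way at 2.70 and 5.12 at 4 weeks and 6.59 and 6.60 at 6 weeks, a difference of 2.69 ± 0.73 against -0.56 in wild type. The receptor gene Egfr differed by 0.15 ± 0.16, and the ligands Ereg and Tgfa by 0.39 ± 0.58 and -0.21 ± 0.25. With the array range as a block Btc gave -3.60 and Epgn 3.76.

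The other genes lowest at 6 weeks by the same rule were Scgb1a1, Cgref1, Fbn2, Ly6m, Slc2a10, Cldn10, Lce1m, Casq2 and Igf2bp3. Scgb1a1, a secretoglobin of airway and gland epithelium, stood at 7.15 and 5.85 at 4 weeks and 4.47 and 3.87 at 6 weeks, at least 5.02-fold lower. Slc2a10, a glucose transporter, stood at 7.79 and 6.92 at 4 weeks and 5.96 and 5.64 at 6 weeks, and wild type differed by -0.28. Fbn2, a fibrillin of developing tissue, stood at 10.42 and 10.14 at 4 weeks and 9.15 and 7.90 at 6 weeks in Spade and 11.58 and 10.09 at 4 weeks and 8.69 and 9.19 at 6 weeks in wild type. Igf2bp3, a fetal RNA-binding protein, stood at 4.03 and 4.88 at 4 weeks and 3.24 and 3.08 at 6 weeks in Spade and 6.36 and 4.95 at 4 weeks and 2.45 and 3.28 at 6 weeks in wild type. For Fbn2 and Igf2bp3 the wild-type difference was the larger one. With the mean of its probe sets, Igf2bp3 differed in Spade by -0.42 in place of -1.30. Of the 21 genes 2-fold below both 4-week Spade ears, 17 were also lower in wild type, 8 of them 2-fold or more, and 20 stayed negative with the array range as a block. The exception, Ly6m, was 0.063 with that block. The wild-type median over all genes was 0.05, and the share of all genes lower in wild type was not counted.

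Much of what was lower in Spade ears was lower with age in wild-type ears as well. Of 29 dermal matrix genes, 8 were lower at an unadjusted p under 0.05 and 0 higher, against 1.84% and 2.62% of all genes. Without overlap 14 were lower, and the median was -0.30. Wild type had 18 lower without overlap and a median of -0.36. Over all genes 15.0% were lower without overlap in Spade and 12.4% in wild type, which is also the background of the melanocyte and muscle counts that follow. Mfap4, a microfibril protein, stood at 11.47 and 10.76 at 4 weeks and 10.34 and 9.54 at 6 weeks in Spade, Lox, the collagen cross-linking enzyme, at 13.44 and 12.63 at 4 weeks and 12.47 and 11.68 at 6 weeks, and Eln, elastin, at 14.11 and 13.81 at 4 weeks and 13.38 and 12.65 at 6 weeks. Their wild-type differences were -0.89, -1.13 and -0.90, and the differences between genotypes were -0.29 ± 0.57, 0.17 ± 0.53 and -0.04 ± 0.47. Of 8 melanocyte genes, 5 were lower without overlap in Spade and 6 in wild type, with medians of -0.59 and -0.99. Tyrp1, a pigment enzyme, stood at 11.21 and 10.50 at 4 weeks and 10.22 and 9.75 at 6 weeks in Spade. Of 34 skeletal muscle genes, 8 were lower without overlap in Spade and 11 in wild type, with medians of -0.17 and -0.45. Myh8, the perinatal myosin heavy chain, stood at 6.77 and 7.81 at 4 weeks and 5.56 and 5.56 at 6 weeks in Spade and 10.32 and 8.06 at 4 weeks and 4.49 and 6.47 at 6 weeks in wild type.

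Of 19 auricular cartilage genes, 6 were lower and 1 higher without overlap in Spade, against 4 lower and 8 higher in wild type, with medians of -0.12 and 0.31. All genes gave 15.0% lower and 21.0% higher in Spade and 12.4% and 25.2% in wild type, and the difference of the list between genotypes was not tested. Col9a3, a chain of cartilage collagen, differed by -1.06 ± 0.46 in Spade without overlap, while the wild-type means at the same ages were nearly equal. With the mean of its probe sets Col9a3 gave -0.56 in Spade. Col2a1, the main cartilage collagen, was lower in both genotypes, by -1.20 and -1.70. The median difference of the 13 adipocyte genes was 0.09 and of the 24 oxidative phosphorylation genes -0.02.

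Akr1c18, a steroid dehydrogenase that inactivates progesterone, had the largest positive difference of the genes at an unadjusted p under 0.05 and also differed in wild type. It stood at 3.93 and 7.18 at 4 weeks and 10.78 and 10.08 at 6 weeks in Spade and 4.86 and 8.14 at 4 weeks and 10.52 and 10.01 at 6 weeks in wild type, differences of 4.88 ± 1.13 and 3.76 ± 1.13. Its neighbour in the same enzyme family, Akr1c14, stood at 6.01 and 6.87 at 4 weeks and 7.95 and 8.26 at 6 weeks in Spade and differed by 1.49 in wild type. For both, the difference between genotypes, 1.11 ± 1.60 and 0.18 ± 0.54, was no larger than its standard error.

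In wild type 0 of 11984 genes (0.0%) passed, with 852 (7.11%) at an unadjusted p under 0.05, of which 573 (4.78%) were higher and 279 (2.33%) lower. With each array centred on its median 369 of 799 were higher, and with quantile normalization 420 of 802. The 6-week arrays did not overlap the 4-week arrays for 3023 genes higher (25.2%) and 1482 lower (12.4%). The genes that differed most in wild type by the naming rule were Akr1c18, Inmt, Uts2r, Nnat and Bhmt as higher and Myh8, Igf2bp3, Adam12, Casq2 and Slc38a4 as lower. Of these 10, 9 had the same sign in Spade ears, a share that was not counted over all genes. The exception was Nnat, neuronatin, which stood at 6.05 and 5.32 at 4 weeks and 5.61 and 4.76 at 6 weeks in Spade and 4.69 and 6.38 at 4 weeks and 7.99 and 7.48 at 6 weeks in wild type.

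The test of the difference between genotypes also gave 0 of 11984 (0.0%), with 351 genes (2.93%) at an unadjusted p under 0.05, 121 of them (1.01%) higher and 230 (1.92%) lower in Spade. With median centring this was 165 of 331. Among genes at an unadjusted p under 0.05, the highest differences were those of 2610528A11Rik, Mcpt8, Fcer1a, Lce3a and Sprr2i, at 4.58 ± 1.82, 4.15 ± 1.67, 3.67 ± 0.67, 3.55 ± 0.70 and 3.33 ± 0.84 in that order. The lowest were Nnat, Btc, Ppp3cc, Speg and Dbp. Dbp, a clock-controlled transcription factor, stood at 13.36 and 13.04 at 4 weeks and 12.60 and 12.75 at 6 weeks in Spade and 11.99 and 12.60 at 4 weeks and 13.47 and 13.27 at 6 weeks in wild type, and Nfil3, which acts on the same promoter elements in the opposite direction, at 5.73 and 6.97 at 4 weeks and 7.93 and 7.18 at 6 weeks and 7.59 and 7.55 at 4 weeks and 6.71 and 6.96 at 6 weeks. The labels give no time of day at which ears were taken, and its part was not tested.

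**Figure D4:**
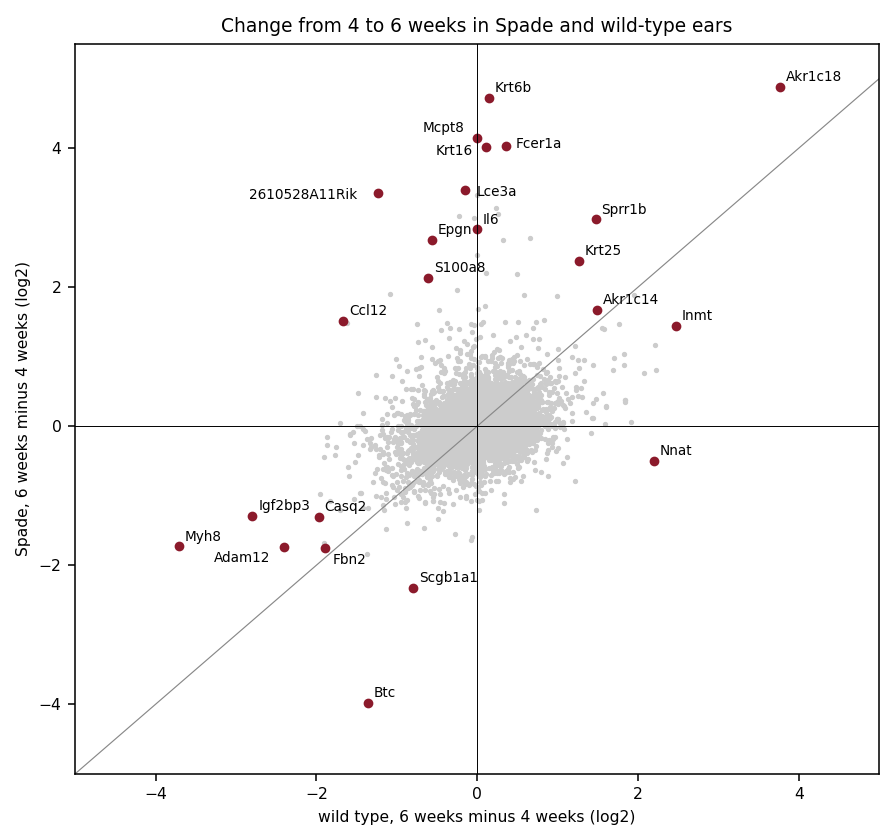
Each point is a tested gene, placed by its log2 difference between 6 and 4 weeks in wild type (horizontal) and in Spade (vertical), with the solid line marking equal differences; Xist is left out because 1 array of each genotype has it near the floor. Akr1c18, Akr1c14, Fbn2, Adam12 and Casq2 lie near the line, Krt6b, Mcpt8, Fcer1a, Lce3a and Il6 lie near 0 for wild type, and Ccl12 and Nnat have opposite signs in Spade and wild type.

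Some differences changed when the array range entered the fit as a block, which here means wild-type replicate 3 against 1. The cause was not tested. Fos, Fosb and Hbegf, genes that respond within minutes to handling and injury, differed by 1.50, 1.88 and 0.65 in Spade, but with the array range as a block by -1.59, -1.28 and -0.72. Ptgs2, the inducible cyclooxygenase, stood at 3.66 and 4.78 at 4 weeks and 6.65 and 7.21 at 6 weeks and went from 2.70 to 0.64. Without the block, the mean of its probe sets gave 1.36. With the block Fcer1a gave 4.39, Mcpt8 4.15, Il6 2.83, Sprr2i 3.33 and Krt6b 5.16. Mcpt8 and Il6 were at the floor on the wild-type arrays at 4 and 6 weeks, and Sprr2i was flat near it there. The block could therefore hardly change Mcpt8, Il6 and Sprr2i, and for them it is no test of the array range. Fcer1a was at the floor on both 4-week wild-type arrays and on 6-week replicate 3, with 2.86 on 6-week replicate 1. Krt6b was low in wild type, at 3.13 and 2.80 at 4 weeks and 3.39 and 2.84 at 6 weeks. For Fcer1a and Krt6b the block is hardly a test either. On MAS5 signals floored at 50 Fcer1a, Mcpt8, Il6, Sprr2i and Krt6b gave 1.74, 2.04, 0.93, 1.56 and 3.11 in that order, and Gata2 gave 0.31. In wild type the mean level of hair shaft and inner root sheath genes was set by 6-week replicate 1. It was 5.45 there, against 3.84 on 6-week replicate 3 and 3.96 and 3.96 at 4 weeks. Krt25, an inner root sheath keratin, stood at 4.07 and 4.11 at 4 weeks and 5.76 and 7.19 at 6 weeks in Spade and 5.15 and 4.54 at 4 weeks and 9.64 and 2.60 at 6 weeks in wild type, and 10 of 28 hair genes were higher without overlap in Spade, against 21.0% of all genes, with a median of 0.03, or 0.54 with the array range as a block.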

How the data were processed

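Total RNA of whole ears, isolated with an RNeasy fibrous tissue kit per the labels, was hybridised to Affymetrix mouse genome arrays, 12 in all with 2 in each of 6 groups. The deposited log2 values were made by the authors with GCRMA, per the series' design text, and the deposited MAS5 intensity values and detection calls with MAS5, per the submitters' processing notes. Tool versions are not given in the sources used here. Each array detected between 52.3% and 58.1% of 45101 probe sets, and precision is limited by how few arrays each group has.

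Of the probe sets, 34958 had 1 gene symbol in the platform annotation, 932 several and 9211 none. The probe set of highest mean was kept for each of 18194 genes, and 11984 genes with a value of 4 or more on at least 2 of 12 arrays were tested. A gene high in 1 group alone could pass, so the filter is not independent of the differences. limma 3.58.1 in R 4.3.3 fitted 6 group means with 6 residual degrees of freedom and a trended prior, after a check on simulated data. Calls took an adjusted p under 0.05 (Benjamini-Hochberg over all tested genes). Nothing says which arrays came from separate animals, and the spread behind each p-value may therefore be technical. The other arrays entered the fit for its estimate of spread. Alternatives changed the arrays, filter, probe set summary, signal (MAS5, floored at 50), normalization, prior and blocks.

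The comparison, the 38 gene lists and the naming rule were chosen with earlier results of these data known. Named are the 10 highest and 10 lowest differences in Spade ears among genes at an unadjusted p under 0.05 without overlap (none passed the adjusted threshold), 5 each way in wild type and in the difference between genotypes, Jak1, up to 4 members of a list by size of difference, and list members for their level on single arrays. Fetub, Scgb2b27, Glt8d2, Ptgs2 and Akr1c14 fall outside the rule and were named after their values were seen. List counts are descriptions without a test. Promoter windows are the 250 bases before RefSeq start sites on GRCm38.p6. The array files name no genome build.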

Additional observations from a re-analysis of the deposited data

How the results depend on the processing

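The count of calls was 0 in Spade ears, in wild type and in their difference. It was unchanged by using the 8 arrays at 4 and 6 weeks, a filter at 6, the mean of probe sets or all probe sets. MAS5 signals, quantile normalization, median centring, no trend, a robust prior or the array range as a block also left it at 0. A 2-fold minimum only removes calls, so from 0 it could give nothing else. With a replicate block over 12 arrays the count was 0 in each, with 346, 718 and 229 genes at an unadjusted p under 0.05. The Spade groups share no replicate numbers. In wild type, where deviations of the same number correlated at 0.0341 over genes, the numbers coincide with the array range. Whether they pair animals therefore cannot be told. Without a filter the calls were 13 in Spade, 2 in wild type and 10 in the difference, and the 13 are genes below the filter. Leaving out single replicates gave 0 to 10 calls in Spade and 0 in wild type and in the difference. These fits assume that a lone array varies like the other groups. Unadjusted counts in Spade fell to 233 without 4-week replicate 1. In wild type they ranged from 380 without 4-week replicate 1 to 1355 without 4-week replicate 3, with 474 without 6-week replicate 1. In the difference they ranged from 225 without 6-week wild-type replicate 1 to 678 without 6-week wild-type replicate 3, with 544 without 4-week wild-type replicate 3. With all probe sets they were 1095, 1634 and 729, and for the difference 551 with the array range as a block, 563 without a filter and 558 on MAS5 signals.

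The counts of genes 2-fold above or below both 4-week ears were recomputed under settings chosen after seeing the data. The higher count was 19 on MAS5 signals and the lower count 10 with the mean of probe sets, and the cause was not tested. Of 482 gene values under alternatives, 19 changed sign, most of them near 0. Leaving out 4-week replicate 1 or 2 gave, in that order, -0.84 and 6.19 for Fetub, -0.91 and 3.63 for Stfa2l1, -0.23 and 1.72 for Socs3, -0.011 and 0.80 for Ereg, 0.020 and -0.10 for Cpa3, 0.28 and -0.17 for Mcpt4, 0.11 and -0.087 for Il33, 0.18 and -0.032 for Tpsb2, and -0.15 and 0.028 for Ighm. With the array range as a block the values that changed sign were Fos (-1.59), Fosb (-1.28), Hbegf (-0.72), Stat3 (-0.24), Egfr (-0.17), Ly6m (0.063), Ighm (0.40) and Cpa3 (0.69), and on MAS5 signals Il33 (-0.16) and Kit (-0.036). Of 38 list medians, 15 moved by more than the replicate spread with the array range as a block.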
